A study of Mus musculus with 21 samples.

Results

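The heavy-strand messenger RNAs and transfer RNAs of the mouse mitochondrion were followed in maps of SRSF3-GFP and SRSF7-GFP binding. Members were all listed positions of chromosome M (build mm9) with a positive value that lie outside the 12S and 16S ribosomal RNAs, so that tRNAs, mRNAs, the few nucleotides between genes and the control region were kept. They numbered 2509 different positions over the 6 deposited lists, of 1201134 different positions in the series. Of these, 256 lay in tRNAs, 2239 in mRNAs and 14 between genes or in the control region.

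The study used fractionation iCLIP, a method that crosslinks proteins to RNA with ultraviolet light and reads the crosslinked nucleotide from where each cDNA ends. P19 cells, a mouse embryonal carcinoma line, expressed SRSF3 or SRSF7 fused to GFP and were irradiated at 254 nm with 100 mJ/cm2. They were separated into cytoplasm, nucleoplasm and chromatin before iCLIP. Each SRSF3 fraction had 4 replicates and each SRSF7 fraction 3. Both proteins are SR proteins, splicing factors with a serine/arginine-rich domain. All cells carried a GFP fusion, and no sample without one was analysed here, so background cDNAs cannot be told from bound ones. The replicates of each group were pooled into 1 list by the authors, and there is no spread between replicates for any value below. Intervals are exact 95% intervals that cover counting error only, and no p-value is given. The lists give positions without gene names, and markers of P19 cells were not checked here.

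The mitochondrial genome is a small circle that is transcribed from both strands into long precursor RNAs. The heavy strand is the template for both rRNAs, for most tRNAs and for all mitochondrial mRNAs except ND6. In the precursor, tRNAs sit between the other genes, and cutting at their ends by RNase P and RNase Z releases the mature RNAs. The heavy-strand mRNAs code for subunits of the respiratory chain complexes and of ATP synthase, and the tRNAs serve the ribosomes inside the organelle. SR proteins are best known for binding nuclear pre-mRNA, and some of them move between nucleus and cytoplasm.

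The strand reading was borne out within the mitochondrial genome. Of positive cDNAs there, between 96.9% and 99.9% per list lay inside heavy-strand genes, and 0 lay in nucleotides that belong to light-strand genes alone. Of negative cDNAs, between 95.2% and 100% lay inside light-strand genes, and 0 lay in nucleotides of heavy-strand genes alone. The map therefore divided the 2 strands' RNAs as the label says, and nearly all listed positions lay in annotated genes.

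A long part of the genome held nothing. No list had a position on either strand from 6392 to 10995 of chromosome M, 4604 nt in all. This stretch covers the end of COX1, all of COX2, ATP8/ATP6, COX3, ND3, TrnD, TrnK, TrnG and TrnR, and most of ND4L/ND4. TrnW lies outside it and was also listed at 0, within a plus-strand gap of 476 nt. Thus 9 of 14 heavy-strand tRNAs and 6 of 10 mRNAs were listed in at least 1 list, counting ATP8/ATP6 and ND4L/ND4 as the bicistronic mRNAs they are. Nuclear copies of mitochondrial sequence are known in the mouse, and how reads matching several places were treated is not given in the sources used here. Whether this emptied the stretch was not tested, and the unlisted RNAs are not shown to be unbound. Levels per kb below leave out the empty stretch.

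Heavy-strand RNAs had their highest share of the listed cDNAs in the cytoplasm for both proteins. In SRSF3 the set took 6.87% of listed cDNAs in cytoplasm (6.78 to 6.97), 1.59% in nucleoplasm (1.54 to 1.63) and 0.0487% in chromatin (0.0455 to 0.0520). These shares rest on 17669, 5006 and 861 cDNAs of 257089, 315510 and 1768665. In SRSF7 it took 2.35% in cytoplasm (2.30 to 2.39), 0.137% in nucleoplasm (0.124 to 0.152) and 0.137% in chromatin (0.123 to 0.153), from 8615, 377 and 341 cDNAs of 367298, 275018 and 248498. The SRSF3 shares thus stepped down across all 3 fractions, while the SRSF7 shares in nucleoplasm and chromatin overlapped. The amount of RNA in a fraction and the binding per RNA cannot be told apart here.

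Cytoplasm over chromatin gave a ratio of shares of 141 in SRSF3 (132 to 151), whereas SRSF7 gave 17.1 (15.3 to 19.1). Cytoplasm over nucleoplasm gave 4.33 in SRSF3 (4.20 to 4.47), whereas SRSF7 gave 17.1 (15.4 to 19.0). Nucleoplasm over chromatin gave 32.6 in SRSF3 (30.3 to 35.1), whereas SRSF7 gave 0.999 (0.861 to 1.16). SRSF3 over SRSF7 was 2.93-fold in cytoplasm (2.86 to 3.01) and 11.6-fold in nucleoplasm (10.4 to 12.9). In chromatin the SRSF3 share was lower, at 0.355 of the SRSF7 share (0.313 to 0.403). With positions counted in place of cDNAs, the SRSF7 ratios were 6.20 for cytoplasm over chromatin and 8.02 for cytoplasm over nucleoplasm. With positions of at least 3 cDNAs, SRSF3 cytoplasm over chromatin was 95.7 and SRSF3 over SRSF7 in chromatin was 0.577 (0.50 to 0.668), which no longer lay below 2-fold as a whole interval.

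The rRNAs and the light-strand RNAs also had a higher share in cytoplasm than in chromatin. The ratio was 63.2 for the rRNAs and 89.3 for the light-strand RNAs in SRSF3, and 38.8 and 22.1 in SRSF7, so in SRSF7 both lay above the heavy-strand 17.1. The step between cytoplasm and nucleoplasm differed in SRSF3. There, cytoplasm over nucleoplasm was 4.33-fold for the heavy-strand set but 1.0 for the rRNAs (0.983 to 1.02), with 17.5-fold for the light-strand RNAs (15.6 to 19.7). The heavy-strand set accordingly made up 41.1% of mitochondrial cDNAs in SRSF3 cytoplasm (40.7 to 41.6), 16.2% in nucleoplasm (15.8 to 16.6) and 24.8% in chromatin (23.4 to 26.3). In SRSF7 it made up 26.4% (25.9 to 26.9), 9.51% (8.61 to 10.5) and 42.7% (39.2 to 46.2). Nucleoplasm held the lowest heavy-strand portion of the mitochondrial cDNAs for both proteins.

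The division between tRNAs and mRNAs turned from fraction to fraction. In SRSF3, tRNAs held 48.8% of heavy-strand cDNAs in cytoplasm (48.0 to 49.5), 10.6% in nucleoplasm (9.79 to 11.5) and 93.1% in chromatin (91.2 to 94.7). In SRSF7 they held 58.7% in cytoplasm (57.7 to 59.8), 78.5% in nucleoplasm (74.0 to 82.6) and 83.3% in chromatin (78.9 to 87.1). The mRNAs held 88.6% of heavy-strand cDNAs in SRSF3 nucleoplasm (87.7 to 89.5), against 18.8% in SRSF7 nucleoplasm (15 to 23.2). In SRSF3 cytoplasm the classes were nearly equal, with 49.2% in mRNAs. With positions counted in place of cDNAs, tRNAs held 10.3% in SRSF3 cytoplasm, 5.72% in SRSF3 nucleoplasm and 18.1% in SRSF7 cytoplasm, so that mRNAs held most positions in these 3 lists. Chromatin was mostly tRNA for both proteins, with mRNA portions of 4.65% in SRSF3 (3.34 to 6.27) and 10.3% in SRSF7 (7.25 to 14).

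**Figure D1:**
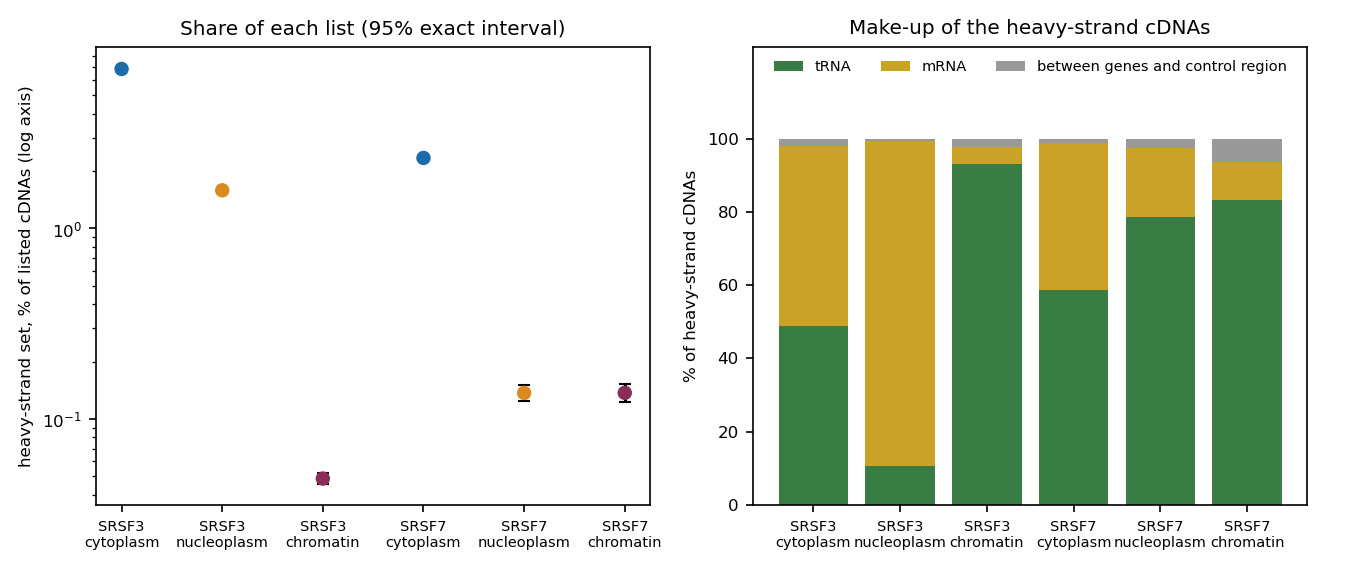
Left, the share of each list's cDNAs that lies in heavy-strand mRNAs, tRNAs, spaces between genes and control region, in percent on a log axis, 1 point per pooled list with its exact 95% interval. Right, the make-up of those cDNAs in percent, with tRNAs at the bottom of each bar. SRSF3 cytoplasm lies highest at 6.87% and SRSF3 chromatin lowest at 0.0487%, and mRNAs fill 88.6% of the bar of SRSF3 nucleoplasm.

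Per length, tRNAs were the more densely marked class in 5 lists by cDNAs and by positions, but not by both in SRSF3 nucleoplasm. In SRSF3 cytoplasm the tRNAs held 12668 cDNAs per kb and the mRNAs 1323, a ratio of 9.57. In SRSF3 nucleoplasm the levels were 782 and 675 per kb, a ratio of 1.16, and in SRSF3 chromatin 1179 and 6.09 per kb, a ratio of 194. The lead of tRNAs in SRSF3 nucleoplasm rested on position 1093, the last nucleotide of TrnV, without which tRNAs held 434 cDNAs per kb, under the 675 of mRNAs. Listed positions per kb there were 98.5 in tRNAs and 168 in mRNAs. The SRSF7 ratios were 14.2 in cytoplasm, 40.3 in nucleoplasm and 78.4 in chromatin. Positions were also taller in tRNAs. Their mean in SRSF3 cytoplasm was 40.4 cDNAs per listed position in tRNAs and 4.74 in mRNAs, and in SRSF7 cytoplasm it was 24.6 and 3.72. In SRSF7 nucleoplasm no mRNA position had more than 2 cDNAs, and 83.6% of its 61 mRNA positions had 1. In SRSF3 chromatin the 32 mRNA positions reached at most 3 cDNAs. Positions entered a list only past a threshold on local density, so binding too thin to pass it is not seen in these lists.

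The fold of each class shows the same turn. For tRNAs, cytoplasm over chromatin was 73.9-fold in SRSF3 (68.7 to 79.5) and 12.1-fold in SRSF7 (10.7 to 13.6). For mRNAs it was 1496-fold in SRSF3 (1097 to 2095) and 66.7-fold in SRSF7 (47.9 to 95.9), against only 40 and 35 mRNA cDNAs in the chromatin lists. These mRNA values moved widely with the counting, being 850 in SRSF3 and 20.7 in SRSF7 when positions were counted. They were 10694 in SRSF3 and 244 in SRSF7 with positions of at least 3 cDNAs. Counting positions in place of cDNAs, the SRSF7 tRNA value was 1.53 (1.16 to 2.03), not wholly beyond 2-fold. Between the proteins in nucleoplasm, mRNAs were 54.5-fold higher in SRSF3 (43.1 to 69.9), whereas the tRNA ratio was 1.57 (1.36 to 1.81). In cytoplasm, SRSF3 over SRSF7 was 3.60-fold for mRNAs (3.46 to 3.75) and 2.43-fold for tRNAs (2.35 to 2.52). With positions of at least 3 cDNAs the tRNA value was 1.85 (1.78 to 1.91), below 2-fold.

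Among the tRNAs, the leucine tRNA for UUR codons, TrnL1, which directly follows the 16S rRNA, led both cytoplasmic lists. TrnL1 had 2501, 60 and 103 cDNAs in SRSF3 cytoplasm, nucleoplasm and chromatin, and 1398, 75 and 55 in the same fractions of SRSF7. It made up 14.2% of heavy-strand cDNAs in SRSF3 cytoplasm (13.6 to 14.7) and 16.2% in SRSF7 cytoplasm (15.5 to 17.0). In both chromatin lists another tRNA led. TrnF, the phenylalanine tRNA at the start of the heavy-strand transcript, had 698, 44 and 161 cDNAs in SRSF3 and 644, 13 and 79 in SRSF7, again from cytoplasm to chromatin. Its portion of heavy-strand cDNAs was 3.95% in SRSF3 cytoplasm and 18.7% in SRSF3 chromatin (16.1 to 21.5), with 7.48% and 23.2% (18.8 to 28) in SRSF7. In both chromatin lists the interval of TrnF overlapped that of TrnV, which came next with 18.1% in SRSF3 (15.6 to 20.9) and 16.7% in SRSF7 (12.9 to 21.1).

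TrnV, the valine tRNA between the rRNAs, had 699, 294 and 156 cDNAs in SRSF3 and 483, 45 and 57 in SRSF7. TrnM, the methionine tRNA used both to start and to extend proteins, had 1571, 50 and 123 in SRSF3 and 797, 50 and 32 in SRSF7. TrnI, the isoleucine tRNA, had 1244, 28 and 78 in SRSF3, and 657 and 45 in SRSF7 cytoplasm and nucleoplasm. In SRSF7 chromatin TrnI was not listed, which makes it the only 1 of these 5 tRNAs missing from a list. The other 4 listed tRNAs were TrnL2, TrnS2, TrnT and TrnH, with 690, 833, 286 and 92 cDNAs in SRSF3 cytoplasm and 528, 396, 122 and 36 in SRSF7 cytoplasm. TrnT, the threonine tRNA, was listed in neither nucleoplasm, although SRSF3 chromatin had 57 cDNAs there and SRSF7 chromatin 26.

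Per kb of SRSF3 cytoplasm the order was TrnL1 with 33347 cDNAs, TrnM with 22768, TrnI with 18029, TrnS2 with 14119, TrnF with 10265, TrnV with 10130, TrnL2 with 9718, TrnT with 4269 and TrnH with 1373. TrnF, TrnV and TrnL2 could not be ordered, since the intervals of their shares overlapped. In SRSF7 cytoplasm TrnL1 was again first with 18640 cDNAs per kb and TrnH last with 537. Across the 9 listed tRNAs the log2 counts plus 1 of both cytoplasmic lists correlated with a Pearson coefficient of 0.97 and a Spearman coefficient of 0.85. Of the 9 pairs of lists compared, this one had the highest Pearson coefficient for tRNAs. The others ran from 0.0023 for SRSF7 nucleoplasm with chromatin to 0.79 for SRSF3 nucleoplasm with chromatin. For the mRNAs of both cytoplasmic lists the coefficients were 0.73 and 0.43. The units compared share the libraries and the peak threshold, and these values are given as a description.

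**Figure D2:**
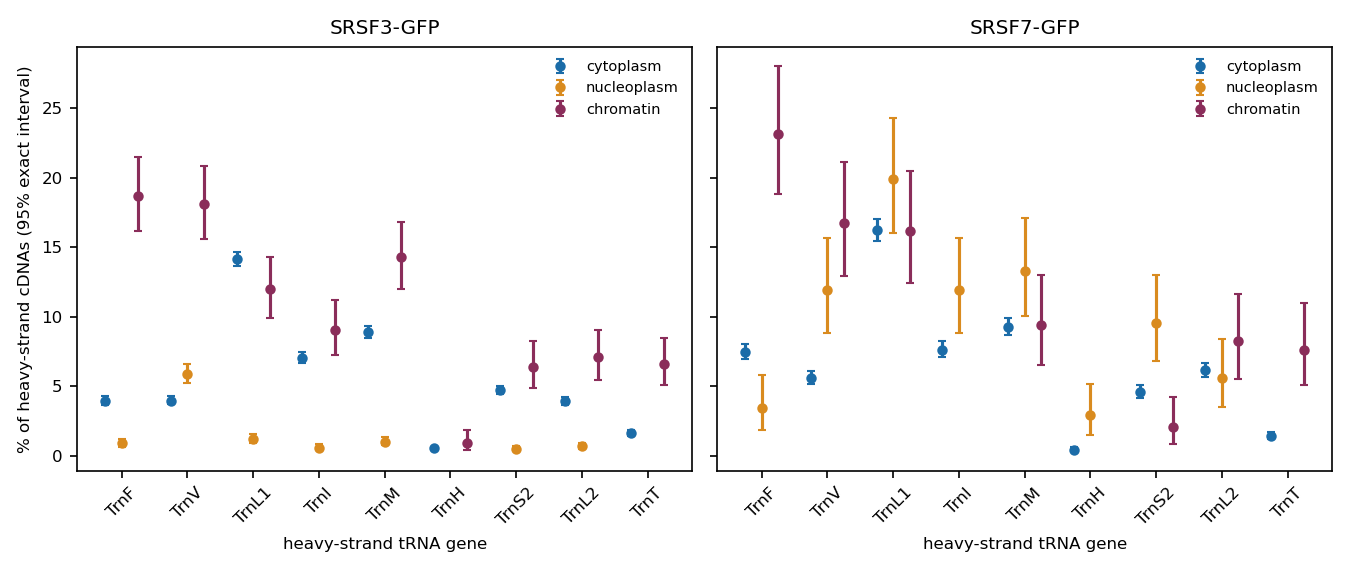
Portion of heavy-strand cDNAs in each of the 9 listed tRNAs, in percent, for SRSF3 (left) and SRSF7 (right), with cytoplasm, nucleoplasm and chromatin side by side and exact 95% intervals. No point is drawn where a tRNA was not listed. TrnL1 leads both cytoplasmic lists at 14.2% and 16.2%, and TrnF leads both chromatin lists at 18.7% and 23.2%.

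Each tRNA with enough cDNAs held a larger share in cytoplasm than in chromatin. A unit was compared with at least 50 cDNAs in both lists together and 10 in each, and passed as higher or lower where its whole interval lay beyond 2-fold. In SRSF3, 8 of 8 compared tRNAs and 2 of 2 compared mRNAs were higher in cytoplasm, where 37.9% of 1048 nuclear loci were. The tRNA folds had a median of 82.8 and ran from 29.8 for TrnF (25.1 to 35.6) to 167 for TrnL1 (137 to 205), while the median over nuclear loci was 1.67. In SRSF7, 6 of 6 tRNAs and 2 of 2 mRNAs were higher in cytoplasm, beside 16.6% of 850 nuclear loci. Those tRNA folds had a median of 9.25 and ran from 3.17 for TrnT (2.07 to 5.05) to 17.2 for TrnL1 (13.1 to 22.9), beside a nuclear median of 0.988. The interval of TrnL1 overlapped those of TrnI at 110 (87.2 to 140) in SRSF3 and of TrnM at 16.9 (11.8 to 24.8) in SRSF7. TrnF, TrnV and TrnT had the lowest 3 values in both proteins. With positions of at least 3 cDNAs, none of the mRNAs of either protein had enough cDNAs in chromatin to be compared. After thinning, neither of the 2 mRNAs in SRSF3 could be compared, and both in SRSF7 still passed. Lists were thinned to the 248498 cDNAs of SRSF7 chromatin, so the counts of that list stayed the same. Of the tRNAs, 7 of 8 in SRSF3 and 5 of 6 in SRSF7 still passed. TrnS2 in SRSF3 could not be compared, and TrnT in SRSF7 was at 2.69 (1.69 to 4.40) and no longer passed.

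In SRSF3, cytoplasm over nucleoplasm had a higher median fold in tRNAs than in mRNAs. The ranges overlapped, since TrnV lay below the mRNAs ND2 at 4.05 (3.63 to 4.53) and COX1 at 3.75 (3.46 to 4.07). That overlap rested on position 1093, which held 237 of the 294 TrnV cDNAs in SRSF3 nucleoplasm and was not listed in cytoplasm. Without it TrnV had 57 cDNAs in nucleoplasm, against 699 in cytoplasm. All 7 compared tRNAs were higher in SRSF3 cytoplasm, with folds from 2.92 for TrnV (2.54 to 3.36) to 54.5 for TrnI (37.5 to 82.4) and a median of 38.6. Of 6 mRNAs, 4 were higher, with a median fold of 2.31, and the nuclear share higher was 8.27%. ND1 at 1.22 (1.11 to 1.33) and CYTB at 1.79 (1.62 to 1.97) did not pass. With positions of at least 3 cDNAs, ND4L/ND4 at 1.86 (1.63 to 2.12) and ND5 at 2.03 (1.87 to 2.20) no longer passed. With positions counted in place of cDNAs, the 4 mRNA calls held, but none of the 7 tRNAs had enough positions to be compared. In SRSF7, 7 of 7 tRNAs and 3 of 3 mRNAs were higher in cytoplasm, beside 16.5% of nuclear loci, with a tRNA median of 11.9.

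Nucleoplasm over chromatin set the proteins apart. In SRSF3, 2 of 7 compared tRNAs were higher in nucleoplasm, close to the 31.5% of nuclear loci, namely TrnV at 10.6 (8.67 to 12.9) and TrnL1 at 3.27 (2.33 to 4.53). The lists covered different nucleotides of TrnV, and without the tallest position of each list TrnV was at 2.05 (1.49 to 2.79) and no longer passed. TrnL1 did not pass with positions of at least 3 cDNAs, at 2.18 (1.48 to 3.16). Both compared mRNAs were higher there, COX1 at 405-fold (225 to 814) and ND4L/ND4 at 96.5-fold (66.3 to 146). Their chromatin counts were only 11 and 29 cDNAs. Neither could be compared with positions of at least 3 cDNAs or after thinning. In SRSF7, none of 4 compared tRNAs was higher, where 21.4% of nuclear loci were, and TrnF was lower, at 0.149 (0.0758 to 0.269), where 14.2% of nuclear loci were. That value rested on position 36, which held 53 of the 79 TrnF cDNAs in chromatin. Without the tallest position of each list TrnF had 13 and 26 cDNAs, too few to be compared. No mRNA could be compared in SRSF7, since each had under 10 cDNAs in at least 1 of the lists or too few together.

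**Figure D3:**
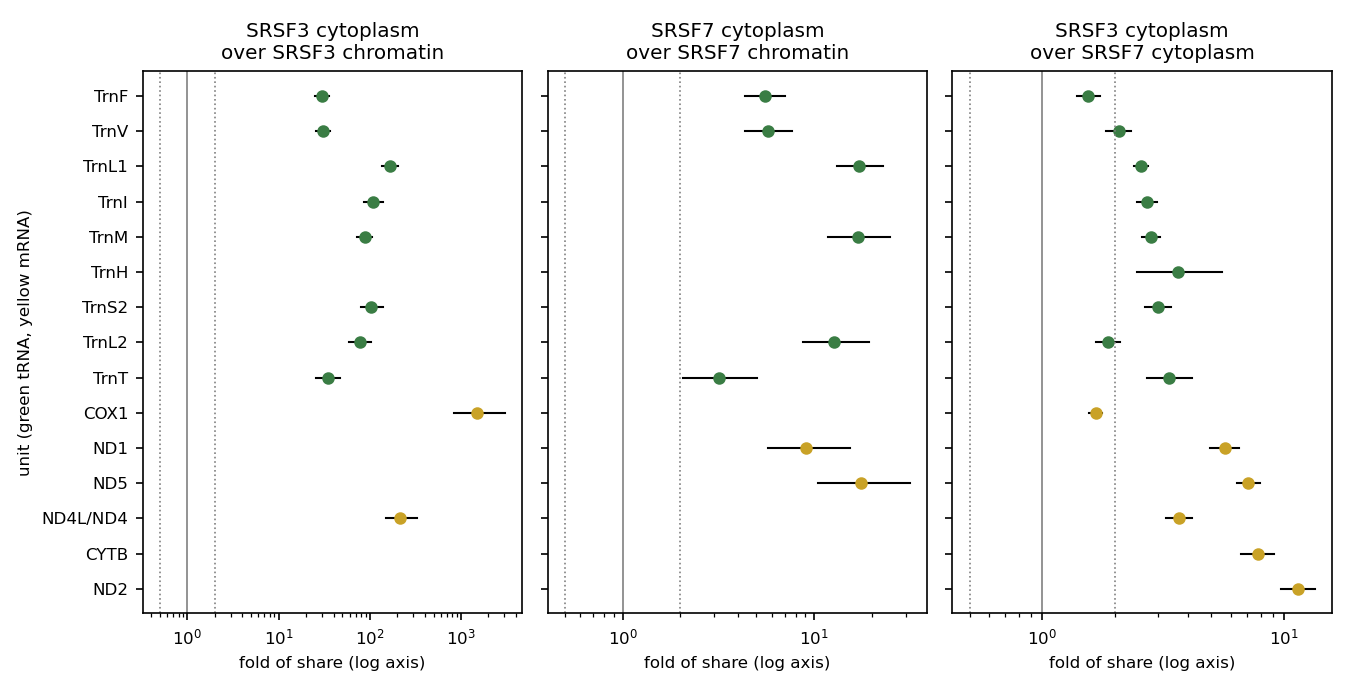
Fold of the share of listed cDNAs for each listed tRNA (green) and mRNA (yellow), on a log axis, for SRSF3 cytoplasm over chromatin, SRSF7 cytoplasm over chromatin and SRSF3 over SRSF7 in cytoplasm. Points are folds and lines exact 95% intervals, with dotted lines at 2-fold in either direction. Units with too few cDNAs to be compared have no point, and all points of the first pair of panels lie beyond 2-fold.

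Within tRNAs the cDNAs gathered around the middle of the molecule, where the anticodon arm lies. When each tRNA was cut into 5 equal parts, the middle part held 51.4% of tRNA cDNAs in SRSF3 cytoplasm (50.4 to 52.5) and 57.0% in SRSF7 cytoplasm (55.7 to 58.4). The part before it held 35.6% and 31.1%, and the last part 1.07% and 0.711%. The middle part was also the fullest in chromatin, with 49.3% in the middle part for SRSF3 (45.7 to 52.8) and 49.3% for SRSF7 (43.3 to 55.3). The first part held 11.8% in SRSF3 chromatin and 9.51% in SRSF7 chromatin, beside 3.63% and 1.03% in the cytoplasmic lists. TrnV held 70 of the 95 first-part cDNAs in SRSF3 chromatin and 26 of the 27 in SRSF7 chromatin. In the other tRNAs the first part held 3.87% in SRSF3 chromatin and 3.95% in SRSF3 cytoplasm. For SRSF7 these values were 0.441% and 1.14%.

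A few nucleotides carried much of each tRNA. Position 2703, nucleotide 28 of TrnL1, was the tallest position of TrnL1 in all 6 lists. It had 819, 20 and 36 cDNAs in SRSF3 cytoplasm, nucleoplasm and chromatin and 491, 34 and 28 in SRSF7. It was the tallest heavy-strand position of both cytoplasmic lists and of SRSF7 nucleoplasm. Position 36, nucleotide 36 of TrnF, was the tallest of both chromatin lists, with 64 cDNAs in SRSF3 and 53 in SRSF7, or 7.43% and 15.5% of heavy-strand cDNAs. It had 407 and 267 cDNAs in the cytoplasmic lists and was listed in neither nucleoplasm.

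Other tall positions also recurred between the proteins. Position 11706, nucleotide 36 of TrnL2, had 316, 23 and 32 cDNAs in SRSF3 and 287, 10 and 16 in SRSF7, and was the tallest of that tRNA in every list. Position 11633, nucleotide 21 of TrnS2, had 282, 10 and 8 in SRSF3 and 92, 16 and 3 in SRSF7. Position 3876, nucleotide 32 of TrnM, had 354, 13 and 13 in SRSF3, and 173 and 6 in SRSF7 cytoplasm and nucleoplasm. Position 1042, nucleotide 18 of TrnV, had 141 and 22 in SRSF3 cytoplasm and chromatin, and 99, 16 and 7 in SRSF7. These positions were chosen for being among the tallest of a list and did not rank high everywhere. Position 11633 ranked 88 in SRSF3 nucleoplasm and 28 in SRSF3 chromatin, and position 3876 ranked 59 in SRSF3 nucleoplasm.

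The 10 tallest heavy-strand positions held 19.9% of heavy-strand cDNAs in SRSF3 cytoplasm, 10.2% in SRSF3 nucleoplasm and 31.2% in SRSF3 chromatin. In SRSF7 they held 24.7%, 38.7% and 52.2%. The lists had 2059, 1172 and 183 heavy-strand positions in SRSF3 and 1137, 130 and 98 in SRSF7. Since 10 positions are a larger part of a shorter list, these portions do not compare concentration between lists. In SRSF3 nucleoplasm 3 of the 10 were in tRNAs, against 9 or 10 in the other 5 lists.

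**Figure D4:**
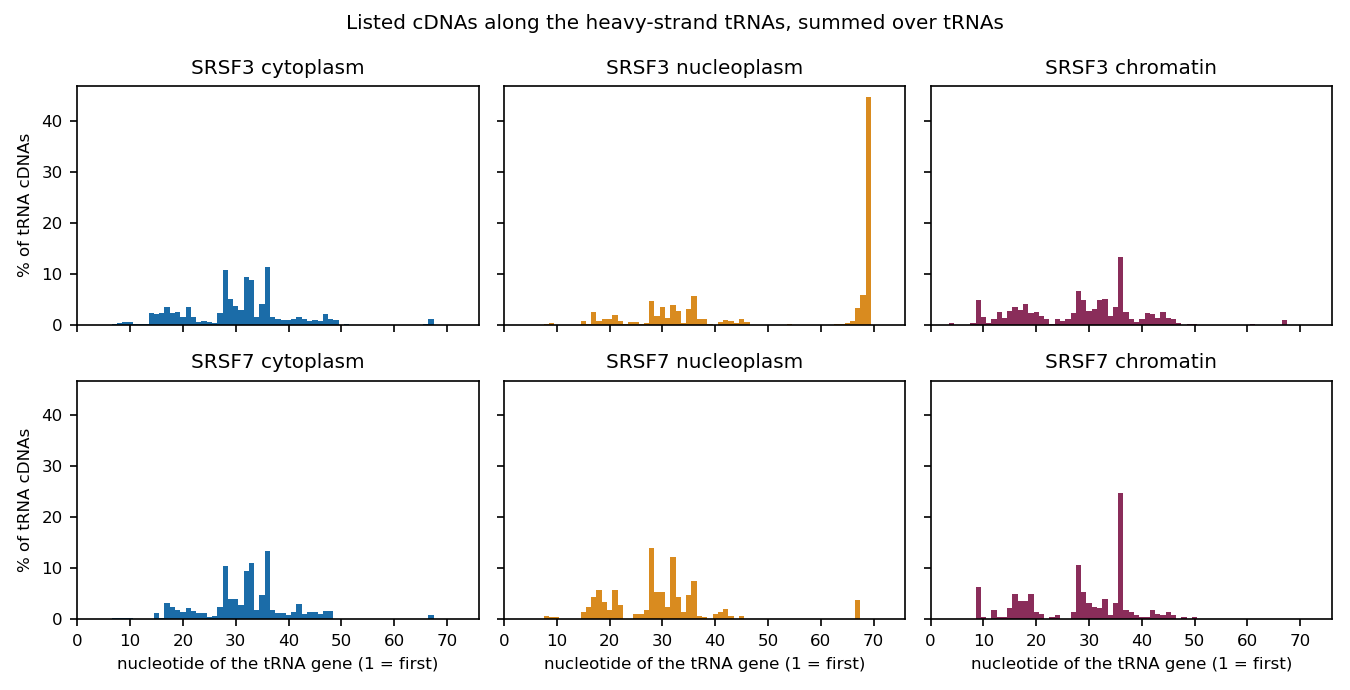
Percent of tRNA cDNAs at each nucleotide of the tRNA genes, counted from the first nucleotide and summed over the listed tRNAs, with 1 panel per list. Bars stand at nucleotides 28, 32, 33 and 36 in both cytoplasmic lists, and a tall bar at nucleotide 69 appears only in the panel of SRSF3 nucleoplasm.

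TrnV was listed in different stretches of the tRNA in some of the lists. In cytoplasm its positions ran from nucleotide 17 to 33 in SRSF3 and from 17 to 34 in SRSF7. In SRSF7 nucleoplasm they ran from 18 to 32, within the range of SRSF7 cytoplasm. In chromatin they ran from 4 to 31 and from 9 to 20, with nucleotide 9 tallest in both. In SRSF3 nucleoplasm they ran from 54 to 69, and 293 of its 294 cDNAs fell in the last of the 5 parts, where no other list had any TrnV cDNA.

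Most of these sat on a single nucleotide. Position 1093, the last nucleotide of TrnV and directly before the 16S rRNA, had 237 cDNAs in SRSF3 nucleoplasm and was not listed in the other 5 lists. The highest of the positions within 5 nt of it had 31 cDNAs. It was the tallest heavy-strand position of that list. Without the tallest position of each list, 1093 in SRSF3 nucleoplasm and 36 in SRSF3 chromatin, the tRNA fold of SRSF3 nucleoplasm over chromatin was 2.24 (1.95 to 2.57) in place of 3.72 (3.33 to 4.15), no longer wholly beyond 2-fold. Leaving TrnV out, the middle part held 55.9% of the remaining 238 tRNA cDNAs in SRSF3 nucleoplasm, against 25% with it.

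Single positions directly before a mature RNA stood out at 2 other places. Position 3844 lies between genes, directly before TrnM, and had 311, 21 and 17 cDNAs in SRSF3 and 81, 9 and 21 in SRSF7, where the highest of the positions within 5 nt had 26 and 14 in the cytoplasmic lists. Position 11612, the last nucleotide of TrnH and directly before TrnS2, had 89 and 7 cDNAs in SRSF3 cytoplasm and chromatin, and 36 and 11 in SRSF7 cytoplasm and nucleoplasm. It held 89 of the 92 TrnH cDNAs in SRSF3 cytoplasm and all 36 in SRSF7 cytoplasm. Position 14144, directly before CYTB, was lower, with 8 and 12 cDNAs in SRSF3 cytoplasm and nucleoplasm and 7 in SRSF7 cytoplasm. A cDNA that runs to the 5′ end of an RNA would be placed on the nucleotide before it, so at these positions a link to the upstream RNA and the end of the downstream RNA cannot be told apart. Together such positions held between 1.44% (SRSF7 cytoplasm) and 6.16% (SRSF7 chromatin) of heavy-strand cDNAs.

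Among the mRNAs, COX1 led both cytoplasmic lists. COX1, which encodes the catalytic subunit of cytochrome c oxidase, had 2425, 794 and 11 cDNAs in SRSF3 cytoplasm, nucleoplasm and chromatin, and 2087, 21 and 1 in SRSF7. It made up 13.7% of heavy-strand cDNAs in SRSF3 cytoplasm (13.2 to 14.2) and 24.2% in SRSF7 cytoplasm (23.3 to 25.1). Of the 1545 nt of COX1, 1064 lie outside the empty stretch.

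The complex I mRNAs were spread otherwise. ND1 had 1017 and 1026 cDNAs in SRSF3 cytoplasm and nucleoplasm and was not listed in SRSF3 chromatin, while SRSF7 had 256, 29 and 19. ND5 had 1925 and 996 in SRSF3 cytoplasm and nucleoplasm, and 388 and 15 in SRSF7 cytoplasm and chromatin. ND4L/ND4 had 915, 499 and 29 in SRSF3, and 357 and 21 in SRSF7 cytoplasm and nucleoplasm. ND2 was listed in 3 lists alone, with 1393 and 422 in SRSF3 cytoplasm and nucleoplasm and 175 in SRSF7 cytoplasm. CYTB, the cytochrome b subunit of complex III, was listed in the same 3, with 1021, 700 and 188. SRSF3 cytoplasm, SRSF3 nucleoplasm and SRSF7 cytoplasm were therefore the lists in which all 6 listable mRNAs appeared.

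The order of the mRNAs by level per kb differed between those 3 lists. SRSF3 cytoplasm had 2279 cDNAs per kb in COX1, 1667 in ND4L/ND4, 1342 in ND2, 1063 in ND1, 1055 in ND5 and 892 in CYTB. SRSF3 nucleoplasm had 746 in COX1, 909 in ND4L/ND4, 407 in ND2, 1072 in ND1, 546 in ND5 and 612 in CYTB. SRSF7 cytoplasm had 1961 in COX1, 650 in ND4L/ND4, 169 in ND2, 268 in ND1, 213 in ND5 and 164 in CYTB. ND1 stood first in SRSF3 nucleoplasm and COX1 in both cytoplasmic lists, and COX1 stood further above the rest in SRSF7 cytoplasm.

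The difference between the proteins in cytoplasm accordingly depended on the mRNA. SRSF3 over SRSF7 was 1.66 for COX1 (1.57 to 1.76), which did not pass, and 11.4 for ND2 (9.71 to 13.4). CYTB at 7.76 (6.63 to 9.11), ND5 at 7.09 (6.35 to 7.93), ND1 at 5.68 (4.94 to 6.54) and ND4L/ND4 at 3.66 (3.24 to 4.15) passed too. Thus 5 of 6 mRNAs and 6 of 9 tRNAs were higher in SRSF3 cytoplasm, where 14% of 864 nuclear loci were. The tRNA folds were narrower, from 1.55 for TrnF (1.39 to 1.73) to 3.65 for TrnH (2.46 to 5.53). Only 2 of those 6 tRNAs, but all 5 of the mRNAs, still passed with positions of at least 3 cDNAs. With positions counted in place of cDNAs, all 5 mRNAs still passed but 0 of the 6 tRNAs did. Of these tRNAs, 4 lay within 2-fold and 2 could not be compared. COX1 then passed too, with 423 of 58686 positions in SRSF3 and 396 of 142444 in SRSF7. In nucleoplasm 3 of 3 compared mRNAs were higher in SRSF3, with folds from 20.7 to 33.0, but 1 of 7 tRNAs, TrnV at 5.69 (4.15 to 7.98), beside 12.6% of nuclear loci. Without the tallest position of each list TrnV was at 1.10 (0.734 to 1.67) and no longer passed. In chromatin 3 of 6 tRNAs were lower in SRSF3, beside 17.3% of nuclear loci, namely TrnF at 0.286, TrnL1 at 0.263 and TrnL2 at 0.306. None of the 3 passed with positions of at least 3 cDNAs or after thinning, and with positions of at least 3 cDNAs TrnF was at 0.456, TrnL1 at 0.437 and TrnL2 at 0.616.

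Along the mRNAs the listed cDNAs lay in blocks rather than evenly. A list holds only positions past a threshold on local density, which favours blocks, and the gaps are not shown to be unbound. In ND1 the last of 3 equal parts held 89.1% of cDNAs in SRSF3 cytoplasm, 87.0% in SRSF3 nucleoplasm and 74.2% in SRSF7 cytoplasm. The highest window of 50 nt, nucleotides 851 to 900, was the same in all 5 lists that held ND1. It contained positions 3628 and 3629, the next tallest heavy-strand positions of SRSF3 nucleoplasm after 1093, with 40 and 34 cDNAs there. Nothing was listed in ND1 between positions 3052 and 3474.

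ND5 was marked at its start. In SRSF3 nucleoplasm its first 50 nt held 328 of 996 cDNAs and the first of 3 parts 87.1%, and in SRSF7 cytoplasm its first 50 nt held 136 of 388. In SRSF3 cytoplasm the first part held 52.0% and the last 35.7%, with the highest window at nucleotides 1751 to 1800. CYTB in SRSF3 nucleoplasm had 48.1% in the first part, 51.9% in the last and 0 in the middle. In SRSF3 cytoplasm the middle part of CYTB held 35.5%, and its highest window was nucleotides 551 to 600 with 230 cDNAs. In SRSF7 cytoplasm the last part of CYTB held 0 and the highest window was nucleotides 251 to 300, with 94 of 188 cDNAs.

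In COX1 the highest window was nucleotides 1001 to 1050 in both cytoplasmic lists, with 317 cDNAs in SRSF3 and 375 in SRSF7. The next window, in which the empty stretch begins, held 25 and 74. In SRSF3 cytoplasm nucleotides 451 to 500 came close, with 290. In SRSF3 nucleoplasm the highest was nucleotides 151 to 200 with 99, close to 94 at 451 to 500 and 91 at 1001 to 1050. ND2 had 63.2% of its SRSF3 cytoplasmic cDNAs in its first part, 51.4% in SRSF3 nucleoplasm and 71.4% in SRSF7 cytoplasm. In the last part of ND2 the 3 lists differed, with 11.1%, 46.0% and 0%.

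**Figure D5:**
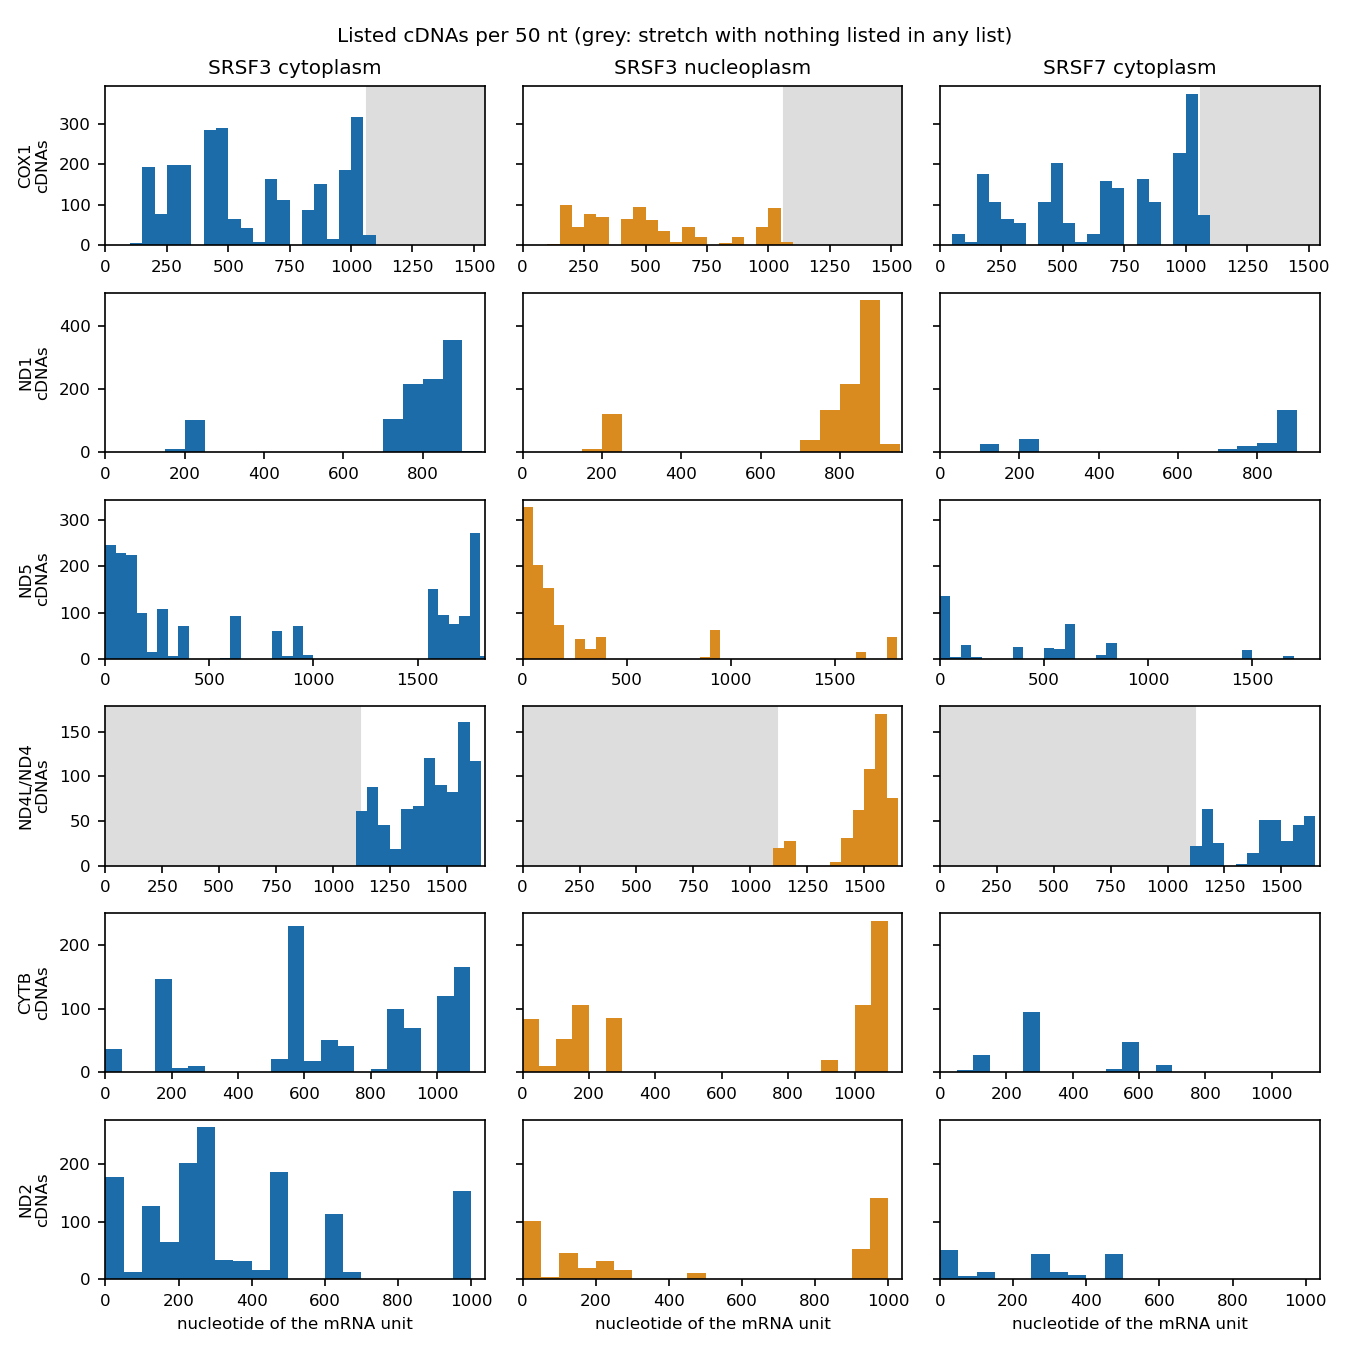
Listed cDNAs per 50 nt along the 6 listed mRNAs, counted from the first nucleotide of each, in SRSF3 cytoplasm, SRSF3 nucleoplasm and SRSF7 cytoplasm. Rows share their vertical scale, and grey marks the part of COX1 and of ND4L/ND4 that lies in the stretch with nothing listed. ND1 is high toward its end in all 3 lists, and ND5 in SRSF3 nucleoplasm is highest in its first 50 nt, with 328 cDNAs.

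In tRNAs the cytoplasmic lists of both proteins held largely the same nucleotides. Of the 213 tRNA positions of SRSF3 cytoplasm and the 206 of SRSF7 cytoplasm, 188 were the same nucleotide, or 88.3% and 91.3% of each. For mRNAs the lists had 1834 and 927 positions with 700 in common, or 38.2% and 75.5%. In chromatin 63 tRNA positions were common, 42.3% of the 149 in SRSF3 and 87.5% of the 72 in SRSF7. No mRNA position was common to the chromatin lists, which had only 32 and 24. These lay mostly in different mRNAs. COX1 alone was listed in both, within positions 5536 to 5638 in SRSF3 and at 6016 in SRSF7. The portion common over all listed positions of the series is not given for these pairs or those below, so the overlaps are a description.

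Within a protein, most positions of the nuclear fractions were also listed in cytoplasm. SRSF3 cytoplasm shared 158 nucleotides with SRSF3 chromatin, 7.67% of the 2059 cytoplasmic and 86.3% of the 183 chromatin positions. The SRSF7 pair shared 81, or 7.12% of 1137 and 82.7% of 98. SRSF3 cytoplasm and nucleoplasm shared 944, or 45.8% of 2059 and 80.5% of 1172. Nucleoplasm and chromatin overlapped less, with 80 shared in SRSF3, or 6.83% of 1172 and 43.7% of 183, and 33 in SRSF7, or 25.4% of 130 and 33.7% of 98. These portions depend on the length of the list matched against. The nucleoplasm lists were shorter than the cytoplasmic ones, so the lower overlap is not shown to be a trait of the fractions. Heavy-strand positions present in all 6 lists numbered 21, of which 19 were in tRNAs, with 8 in TrnL1, 4 in TrnM, 3 in TrnF, 2 in TrnL2 and 2 in TrnS2. The other 2 lay between genes.

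The control region, which holds the promoters, was almost empty. It had 11 cDNAs over 7 positions in SRSF3 cytoplasm, 1 in SRSF7 cytoplasm and none listed elsewhere.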

How the data were processed

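Per the file headers, the authors deposited 1 list per group of single nucleotides whose cDNA count was significant at a false discovery rate under 0.05, from 100 permutations and a neighbourhood of 15 nt. The 21 samples were pooled by the authors into 6 lists, per the labels. The header of each SRSF7 list names regions both as one and separately, so peak calling may differ between the proteins. Values are deposited as whole counts with a sign, read as the strand, and were not scaled. The build is mm9, per the file headers. For the aligner, duplicate removal and multiply matching reads, the method is not given in the sources used here.

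Genes were taken from RefSeq's mouse mitochondrial map in its GRCm38.p6 table, without printing its coordinates. All 24 heavy-strand units matched. Nucleotides shared by a tRNA and an mRNA were given to the tRNA. Shares carry exact Clopper-Pearson intervals, and folds of shares conditional exact binomial intervals. Nuclear loci joined positions of all 6 lists lying no more than 10000 nt apart on 1 strand. Alternatives were a minimum of 3 cDNAs per position, thinning, positions in place of cDNAs, the tallest position left out, shared nucleotides given to the mRNA and other minimums per unit. Values in full are for the 5 tRNAs and 5 mRNAs with the highest mean portion of heavy-strand cDNAs, any unit highest in 1 list, and the 3 tallest positions of each list. Other units, positions and ratios are named for counts of 5 or fewer or were chosen after their values were seen. Members and lists were chosen with earlier results of these data known. Scripts used scipy 1.17.1 and pandas 2.3.3 under Python 3.11.15, with numpy 2.4.6, and figures used matplotlib 3.10.9.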

Additional observations from a re-analysis of the deposited data

How the results depend on the processing

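No paired analysis was possible because replicates were pooled before deposit, and for the same reason no replicate could be left out. Of 141 values of share folds under the alternatives, 132 kept their side of the 2-fold threshold, and no fold that lay beyond 2-fold changed direction. Some of these could hardly move. They include 9 folds without the control region, which held at most 11 cDNAs in a list. Another 9 are mRNA folds without the tallest position, which was in a tRNA in every list, so that mRNA counts stayed the same. With positions of at least 3 cDNAs, SRSF3 over SRSF7 was 0.577 for the set and 0.635 for tRNAs in chromatin, and 1.85 for tRNAs in cytoplasm. No mRNA was then left in SRSF7 nucleoplasm, so its mRNA folds have no value and are not among the 141. The chromatin tRNA ratio was 0.433 after thinning each list to 248498 cDNAs and 0.449 without the tallest position of each list. The SRSF7 tRNA fold of cytoplasm over chromatin was 1.53 with positions counted. The SRSF3 tRNA fold of nucleoplasm over chromatin was 2.24 without the tallest position, and 2.08 without positions directly before a mature RNA and 2.07 without TrnV, both chosen after seeing the data.

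The tRNA portion of heavy-strand cDNAs moved most with positions counted, to 10.3%, 5.72% and 81.4% in SRSF3 cytoplasm, nucleoplasm and chromatin and to 18.1%, 51.5% and 73.5% in SRSF7. With positions of at least 3 cDNAs it was 51.7% in SRSF3 cytoplasm, 97.2% in SRSF3 chromatin, and 63.7%, 96.5% and 88.4% in SRSF7. Thinning gave 96.1% in SRSF3 chromatin. Without the tallest position it was 46.3% and 6.19% in SRSF3 cytoplasm and nucleoplasm and 56.3% in SRSF7 cytoplasm. Without positions before a mature RNA it was 6.23% and 95% in SRSF3 nucleoplasm and chromatin and 88.8% in SRSF7 chromatin. Without TrnV it was 46.6% and 5.05% in SRSF3 cytoplasm and nucleoplasm and 56.3% in SRSF7 cytoplasm. SRSF3 nucleoplasm stayed the lowest of the 6 lists under each of these.

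The number of units compared changed too, and so did the counts beyond 2-fold. The share of nuclear loci under these settings is not given here. With positions of at least 3 cDNAs the counts were 1 of 7 compared for SRSF3 nucleoplasm over chromatin and 0 of 3 for SRSF7 nucleoplasm over chromatin. SRSF7 cytoplasm over nucleoplasm gave 6 of 6. SRSF3 over SRSF7 gave 7 of 15 in cytoplasm, 1 of 4 in nucleoplasm and 0 of 6 in chromatin. Thinning gave 1 of 3 for SRSF3 nucleoplasm over chromatin and 0 for the proteins in chromatin. With positions counted they were 4, 1 and 5 in SRSF3, for cytoplasm over chromatin, nucleoplasm over chromatin and cytoplasm over nucleoplasm. They were then 0 for SRSF7 cytoplasm over chromatin, 3 for SRSF7 cytoplasm over nucleoplasm and 6 for the proteins in cytoplasm, all 6 of them mRNAs. Many units then had too few positions to be compared. In SRSF7 cytoplasm over chromatin this held for all 6 tRNAs and 1 of the 2 mRNAs called before. ND1 was compared there, at 3.25 (1.83 to 6.19), and did not pass. Without the tallest position SRSF7 nucleoplasm over chromatin gave 0, and with at least 200 cDNAs the proteins in chromatin gave 1.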
